A study of Mus musculus with 9 samples.

Results

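The deposited footprint table holds 116 rows under symbols of the TNF superfamily, the interleukins and receptors and binding proteins of both, out of 36410. They were taken by symbol alone, as every row that begins with Tnfsf, Tnfrsf or Il followed by a number, so members known under names of their own (Tnf, Fas, Cd40, Ltbr) are described separately. Of these rows 4 are neither ligands nor receptors: Il4i1 and Il4i1b, which share a locus and have the same counts, and noncoding Il1bos and Tnfsf13os. Ribosome footprints, the stretches of mRNA that a translating ribosome protects from nuclease, were counted in 3 lines of immortalized mouse striatal cells with 3 libraries each. The control line was STHdhQ7/Q7, with 7 glutamines encoded by both Htt alleles, HD-het cells were STHdhQ7/Q111, and HD-homo cells were STHdhQ111/Q111, with 111 glutamines encoded by both. All lines carried knock-in Htt alleles, had C57/BL6 given as the strain and received cycloheximide, which halts elongating ribosomes, for 10 min before lysis, and footprints of 26 to 32 nt were taken from 80S monosomes. Each genotype was 1 cell line, so line and genotype cannot be told apart, and in bulk lysates fewer expressing cells and less RNA per cell cannot be told apart either. The libraries came from independent rounds of culture of these lines, and p-values measure the spread between such libraries.

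TNF superfamily ligands are mostly trimers, held on the cell surface or shed from it, and their receptors either recruit TRAF adaptors toward NF-kB or, where they carry a death domain, can start cell death. Decoy receptors bind a ligand without passing the signal on. Interleukins of the IL-1 family signal through paired receptor chains with a Toll-like cytoplasmic domain, whereas most other interleukins use receptor chains that engage JAK kinases and STAT factors. In brain these systems are best known from microglia, astrocytes and invading leukocytes, and inflammation is one of the processes that the study examined in Huntington disease cells.

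Library totals ran from 22504543 to 41888701 counts, and 3 counts, the most that a count of 0 allows for, corresponded to 0.0714 to 0.142 CPM (depth-scaled counts, on TMM-scaled totals), and such limits cover counting error only. The correlation of log2 CPM between replicates was 0.988 to 0.9965 over genes, and genes are not independent replicates. Of the 11 striatal projection neuron markers, Drd1 and Drd2 were at 0 in every library, 3 or 4 reached a mean of 1 CPM in a line (Foxp1 was the highest, with means of 33.5 CPM in control, 43.1 for HD-het and 56.9 for HD-homo, the order used for the markers that follow), and the list summed to 67.8 to 92.0 CPM over all libraries. The 9 microglia and macrophage markers summed to at most 3.67 CPM in control libraries, 9.6 in those of HD-het and 3.98 in those of HD-homo cells. Tyrobp and Cx3cr1 were at 0 among them, whereas Cd68 was at 2.39, 5.19 and 2.47 CPM and Csf1r at 0.339, 0.380 and 1.06. The T cell list stayed at or under 0.828 CPM with Cd3e, Cd3d, Cd3g and Cd2 at 0. The 6 endothelial markers summed to at most 0.951, 2.36 and 1.06 CPM, with Cldn5 at 0 and Kdr at 0.422, 1.75 and 0.299 CPM. All 7 mesenchymal markers were above 1 CPM in each line, and their sum was 6835 to 9752 CPM in control, 28680 to 30900 in HD-het and 5707 to 7323 in HD-homo libraries. Of these markers 5 were highest in HD-het cells, among them Col1a1 at 3343, 16520 and 4567 CPM, and 2 in HD-homo cells, Col1a2 at 24.0, 88.9 and 1027 CPM and Pdgfra at 3.81, 6.85 and 155 CPM. The 7 neural precursor markers summed to 9586 to 9856, 9015 to 9841 and 5992 to 6527 CPM, most of it Vim, and 5 of them were lowest in HD-homo cells. Among these 5, Nes was at 399.5, 1086 and 7.01 CPM, Sox2 at 51.1, 33.9 and 2.26, and Pax6 at 17.3, 24.8 and 0.0759. Fabp7 was lowest in control cells, at 1.12, 22.3 and 3.04 CPM. The 6 astrocyte markers summed to at most 4.09, 3.12 and 14.2 CPM, where the HD-homo excess was Slc1a3 (1.67, 0.964 and 11.7 CPM), while Gfap (1.15, 0.996 and 0.950 CPM) and Aldh1l1 were lowest in HD-homo cells and Aqp4 was at 0. The part of these markers in the results was not tested.

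Most of the set was silent or nearly so. No count was found for 31 of the 116 genes, which allows at most the limits above, and a further 40 had counts but were too low to be tested, with 19 counts as the highest value in 1 library, for Il1f9 in an HD-homo library. The genes at 0 included the classic leukocyte cytokines Il1b, Il3, Il4, Il12a, Il12b, Il13, Il21 and Il22, with Il17c, Il19, Il20, Il31, Il1f5, Il1f8, Il1f10, Tnfsf8 and Tnfsf14. Receptor genes at 0 were Il2ra, Il5ra, Il7r, Il10ra, Il11ra2, Il21r, Il22ra1, Il22ra2, Tnfrsf8, Tnfrsf13b, Tnfrsf17 and Tnfrsf25, and the noncoding rows Il1bos and Tnfsf13os were at 0 too. The remaining 45 genes passed the filter on low counts, 14 of them ligands and 31 receptors or accessory chains. A mean of at least 1 CPM in 1 of the lines was reached by 36 genes, of at least 10 CPM by 19 and of at least 100 CPM by only 4, Il1rl1, Tnfrsf12a, Tnfrsf11b and Il6st.

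In sum, the 116 genes took 0.107% to 0.168% of the counts of a control library, 0.235% to 0.240% of an HD-het library and 0.218% to 0.312% of an HD-homo library. Il1rl1, the receptor chain for IL-33, alone gave 37.05% to 51.83% of these counts in control, 48.59% to 54.06% in HD-het and 64.74% to 68.98% in HD-homo libraries. Divided by coding length, the highest levels belonged to Tnfrsf12a, the TWEAK receptor Fn14, with 771 ± 77.8 CPM per kb of coding sequence in control cells, then 916 ± 115 and 667 ± 173 in HD-het and HD-homo cells (SD, n = 3), and to Il1rl1, with 408 ± 156, 745 ± 18.3 and 1093 ± 264 (SD, n = 3). They were first and second in control and HD-het cells, and their order turned in HD-homo cells. Further down, the order was not kept. Tnfrsf11b stood at rank 17 of the 45 tested genes in control but at 3 and 8 in HD-het and HD-homo cells, Il1rn moved from rank 35 to 29 and 5, and Il18rap from 7 to 16 and 27.

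**Figure D1:**
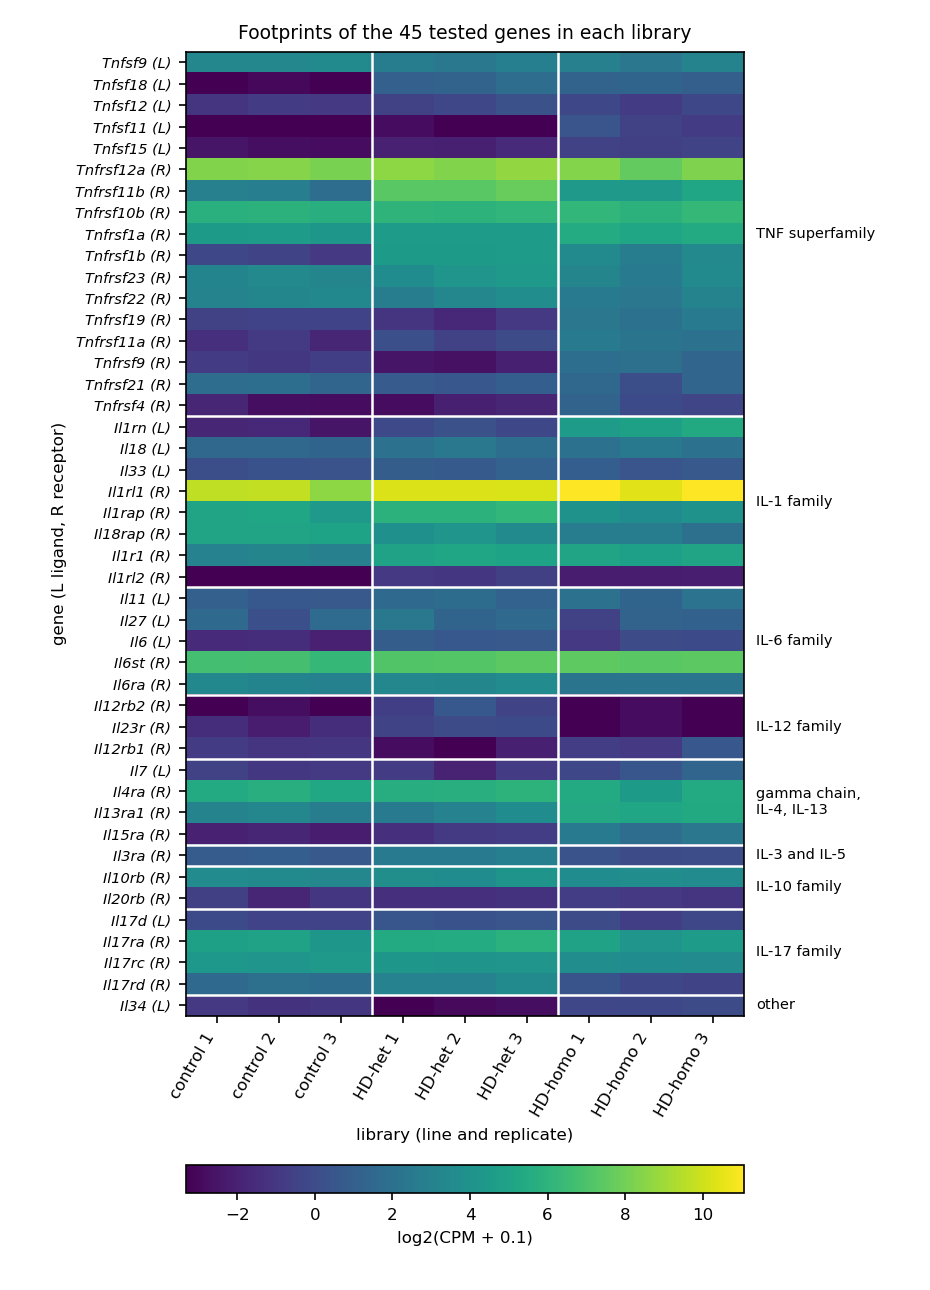
Footprints of the 45 tested genes as log2(CPM + 0.1) in each of the 9 libraries (columns), with genes (rows) grouped by family and marked L for ligand or R for receptor. Il1rl1 and Tnfrsf12a are bright in every column, and Tnfrsf11b, Tnfrsf1b, Tnfrsf9 and Il1rn are among the rows whose colour changes between lines far more than between the libraries of a line.

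Against control, 25 of the 45 tested genes were higher and 7 lower in HD-het cells at an adjusted p under 0.05 (edgeR's quasi-likelihood test, Benjamini-Hochberg over 12678 genes). Over all genes tested the shares were 31% higher and 29.1% lower, 60.1% in either direction, against 55.6% and 15.6%, or 71.1%, in the set. In HD-homo cells 23 were higher and 8 lower, or 51.1% and 17.8%, where the background was 23.3% and 22.3%, 45.7% in either direction. Between the HD lines, 13 were higher and 18 lower in HD-homo cells, or 28.9% and 40%, and the background was 34.6% and 32.8%, 67.5% in either direction. Calls of at least 2-fold were made for 19, 24 and 23 genes in the 3 comparisons, or 42.2%, 53.3% and 51.1%, while 20.8%, 17.2% and 27.3% of all genes tested were called with such a change. By direction, HD-het cells had 15 higher and 4 lower at 2-fold (background 13.9% and 6.91%), HD-homo cells 19 and 5 (8.94% and 8.27%), and HD-homo against HD-het cells 12 and 11 (11.1% and 16.2%). The libraries of the lines compared did not overlap for 34, 34 and 32 genes, or 75.6%, 75.6% and 71.1%, beside 71.2%, 55.5% and 69.5% of all genes tested. The median log2 fold change of the set was 0.73, 0.80 and -0.20, beside 0.02 over all genes in each comparison, and the median size was 0.92, 1.03 and 1.17, beside 0.46, 0.32 and 0.55. These shares describe the genes that passed the filter, and a gene detected in only 1 line passed it through that line.

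**Figure D2:**
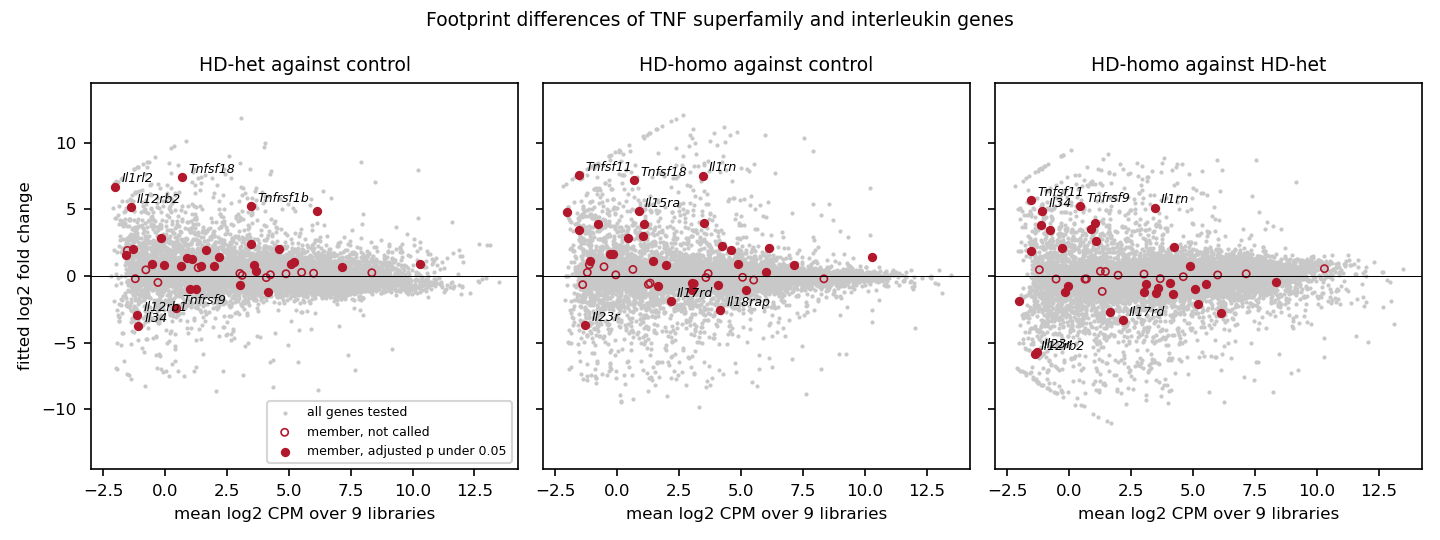
Fitted log2 fold change (vertical axis) against mean log2 CPM over the 9 libraries (horizontal axis) for all genes tested (grey) and the genes of the set (red, filled where the adjusted p was under 0.05) in the 3 comparisons. Il1rn in HD-homo and Tnfrsf1b in HD-het cells stand apart from other genes of the set at their abundance, and the most extreme changes of Tnfsf11, Tnfsf18, Il12rb2 and Il23r belong to low counts.

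Among the 31 receptor genes, 16 were higher and 5 lower in HD-het and 14 higher and 7 lower in HD-homo cells than in control. Of the 14 ligand genes, 9 were higher and 2 lower in HD-het, and 9 higher and 1 lower in HD-homo cells. Over all genes tested, 31% were higher and 29.1% lower in HD-het cells, and 23.3% and 22.3% in HD-homo cells. Both comparisons use the same control libraries, so their values are given side by side. In them, 14 genes were higher in both HD lines, 2 were lower in both (Il18rap and Tnfsf9), 7 moved in opposite directions (15.6% of the 45, beside 11.9% of all genes tested), and 5 passed in neither (Tnfrsf12a, Il4ra, Il27, Tnfrsf22 and Il20rb). Another 9 passed only in HD-het and another 8 only in HD-homo cells, which does not show that the lines differed. Except for opposite directions, no share of all genes tested was worked out for these joint counts, so they only describe the set.

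Several receptors of the TNF superfamily shifted far between the lines. Tnfrsf11b, which lies at chr15:54250619-54278484 (GRCm38.p6) and encodes osteoprotegerin, a secreted decoy for RANKL, had 7.67, 7.04 and 3.50 CPM in the control libraries, 164, 165 and 209 in HD-het, and 21.2, 22.1 and 35.5 in HD-homo libraries. No libraries of different lines overlapped, with HD-het highest and control lowest. HD-het cells exceeded control 29.3-fold (log2 4.87, SE 0.29, edgeR adjusted p = 2.33e-07) and HD-homo cells were also higher (2.10, SE 0.27), and HD-homo cells were below HD-het cells by a log2 change of -2.77 (SE 0.26).

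Tnfrsf1b, the gene of TNF receptor 2 (chr4:145212368-145246870), had 0.764, 0.666 and 0.414 CPM in control, 23.2, 22.9 and 24.4 in HD-het, and 11.3, 6.84 and 10.7 in HD-homo libraries. HD-het libraries were the highest and tightly grouped, and control libraries held 11 to 28 counts each. The gene was 37.7-fold higher in HD-het (log2 5.23, SE 0.24, edgeR adjusted p = 3.43e-08) and 15.4-fold higher in HD-homo cells (3.95, SE 0.24, adjusted p = 1.9e-07), and HD-homo was below HD-het (-1.29, SE 0.18). Tnfrsf1a, the death domain receptor TNF receptor 1 (chr6:125349723-125362483), behaved otherwise. It had 22.6, 23.7 and 19.7 CPM in control, 25.1, 24.8 and 24.6 in HD-het, and 45.4, 34.7 and 44.9 in HD-homo libraries, so that HD-het libraries lay just above control and HD-homo libraries clearly above both, at 0.92 over control (SE 0.12, edgeR adjusted p = 6.4e-05) and 0.75 over HD-het cells (SE 0.12). The HD-het difference from control was 0.17 (SE 0.12, edgeR adjusted p = 0.217).

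Tnfrsf9, the T cell costimulatory receptor 4-1BB, and Tnfrsf19, also called TROY, were lower than control in HD-het and higher in HD-homo cells. Tnfrsf9 had 0.496, 0.404 and 0.527 CPM in control, 0.0759, 0.055 and 0.142 in HD-het (2 or 3 counts each), and 3.62, 3.94 and 2.44 in HD-homo libraries. The corresponding log2 changes against control were -2.42 (SE 0.46) and 2.83 (SE 0.26), and the lines differed by 5.25 (SE 0.35, edgeR adjusted p = 2.61e-07). For Tnfrsf19 the libraries held 0.611, 0.642 and 0.639, then 0.342, 0.220 and 0.426, then 5.03, 3.98 and 6.16 CPM, a change of -1.0 (SE 0.33) in HD-het and 2.99 (SE 0.23) in HD-homo cells. The HD-het call of Tnfrsf19 rested on 8 or 9 counts a library and was lost without control replicate 2 (edgeR adjusted p = 0.052) or HD-het replicate 2 (0.0951), while its rise in HD-homo cells was kept without any 1 library.

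Tnfrsf11a, the gene of RANK (chr1:105780673-105849444), which signals in osteoclast formation, rose in both HD lines, from 0.305, 0.452 and 0.188 CPM in control to 1.06, 0.577 and 0.898 in HD-het and 6.2, 4.63 and 4.21 in HD-homo libraries. The log2 changes were 1.30 (SE 0.37) and 3.91 (SE 0.31, edgeR adjusted p = 1.46e-06), and 2.61 (SE 0.28) between the HD lines. Its ligand RANKL, encoded by Tnfsf11, had no count in any control library, 1 count over the HD-het libraries, and 46, 16 and 11 counts in the HD-homo libraries. HD-homo cells were at least 7.96-fold higher than control, measured against a floor of 3 counts per library, and 72.3-fold higher than in HD-het cells with a 95% counting interval of 12.58 to 2895. In the RANKL system the decoy Tnfrsf11b was thus highest in HD-het cells and the ligand and Tnfrsf11a in HD-homo cells, while control and HD-het cells were both at the floor for the ligand (edgeR adjusted p = 0.406 for Tnfsf11). Tnfrsf4, the costimulatory receptor OX40, had 1 to 5 counts in each control and HD-het library and 81, 22 and 16 counts in HD-homo libraries, a change of 3.89 (SE 0.66, edgeR adjusted p = 5.6e-04) against control and 3.43 (SE 0.63) against HD-het cells. Without HD-homo replicate 1, which held most of these counts, the changes of Tnfrsf4 were 3.13 and 2.66, and without control replicate 1 the first was 4.77. The Tnfsf11 change against HD-het cells was fitted at 5.68, and at 7.61, 5.03 or 5.09 without HD-het replicate 1, HD-het replicate 2 or HD-homo replicate 1. Against control it was fitted at 7.61, and at 6.99 without HD-homo replicate 1. Tnfrsf4 overlaps Sdf4 in the annotation, and whether counting used strand is not given in the sources used here.

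Tnfrsf12a and Tnfrsf10b, the most abundant TNF receptors of control cells, changed less than these. Tnfrsf12a (chr17:23675445-23677449, overlapping Hcfc1r1) had 329, 349 and 286 CPM in control, 400, 328 and 418 in HD-het, and 331, 196 and 308 in HD-homo libraries, and the 3 ranges overlapped. Neither HD line differed from control at the threshold (0.25, SE 0.17 and -0.21, SE 0.17), and HD-homo cells were below HD-het cells by a log2 change of -0.46 (SE 0.17, edgeR adjusted p = 0.035). That call was lost without HD-het replicate 1 or 3 or HD-homo replicate 2 (adjusted p = 0.089, 0.105 and 0.0852). The HD-het difference of Tnfrsf12a was 0.52 and passed when GC content and coding length were taken into account (adjusted p = 0.0124). Tnfrsf10b, the death receptor for TRAIL in the mouse, had 53.7 to 59.8 CPM in control, 62 to 70.1 in HD-het and 60.4 to 75.3 in HD-homo libraries. Its HD-homo rise of 0.30 (SE 0.10, edgeR adjusted p = 0.0288) was lost without control replicate 1 or 3, HD-het replicate 1 or HD-homo replicate 1 or 3, where the adjusted p was 0.0953, 0.0998, 0.0521, 0.0777 and 0.101, and with the GC and length offsets (0.102). In HD-het cells Tnfrsf10b changed by 0.21 (adjusted p = 0.0814), which passed in a fit of those lines alone (0.0326) and without HD-homo replicate 2 (0.0349).

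Tnfrsf22 and Tnfrsf23 are neighbouring decoy receptors for TRAIL on chromosome 7 with similar sequences, so reads may be shared between them. Tnfrsf23 had 8.82, 11.0 and 9.37 CPM in control, 12.5, 17.9 and 20.9 in HD-het, and 9.34, 5.93 and 11.9 in HD-homo libraries. It rose in HD-het cells against control (0.81, SE 0.23, edgeR adjusted p = 0.0111, and 0.0522 without HD-het replicate 3) and was lower in HD-homo cells than in HD-het (-0.92, SE 0.24). Tnfrsf22 was at 5.05 to 13.3 CPM in all libraries, and only its difference between the HD lines passed (-0.63, SE 0.25, edgeR adjusted p = 0.0393). It did not pass without control replicate 2, HD-het replicate 2 or 3, or HD-homo replicate 1 or 2 (adjusted p = 0.051, 0.0829, 0.176, 0.113 and 0.121). Against control, HD-homo Tnfrsf22 changed by -0.58 (edgeR adjusted p = 0.0736), which passed without HD-het replicate 1 or 3 or HD-homo replicate 3 (0.0359, 0.0391 and 0.0242), with no filter (0.0463), in a fit of those lines alone (0.0409) and with the GC and length offsets (0.0294). Tnfrsf21, the death receptor DR6 of neurons, was lower in HD-het cells (-0.99, SE 0.31, edgeR adjusted p = 0.0169), with 2.52 to 3.62 CPM in control and 1.40 to 1.89 in HD-het libraries, and the call was lost without control replicate 2 or HD-het replicate 2 (0.0587 and 0.0684). In HD-homo cells Tnfrsf21 was at 0.994 to 2.75 CPM, and it passed as lower than control only without HD-homo replicate 1 (adjusted p = 0.0426) and as higher than HD-het only without HD-homo replicate 2 (0.0167).

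Of the 11 TNF ligand genes, 5 were tested. Tnfsf18, which encodes GITR ligand (chr1:161494657-161505290), had 1 count over the 3 control libraries, at 0, 0.0238 and 0 CPM, but 2.01, 2.34 and 3.45 CPM in HD-het and 2.25, 2.41 and 1.95 in HD-homo libraries. The ratio to control was 239 in HD-het (95% counting interval 42.35 to 9467) and 210 in HD-homo cells (37.33 to 8360), with edgeR adjusted p of 7.3e-07 and 7.25e-07. The fitted log2 changes of 7.45 and 7.23 became 9.15 and 8.94 without control replicate 2, which held the only control count. The receptor of this ligand, Tnfrsf18, had no count in control libraries but totals of 15 and 19 in HD-het and HD-homo libraries and was not tested.

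Tnfsf9, the 4-1BB ligand, had 9.89, 10.1 and 11.6 CPM in control, 6.76, 5.31 and 7.42 in HD-het, and 7.65, 5.20 and 8.65 in HD-homo libraries, so every HD library lay below every control library. The log2 changes were -0.71 (SE 0.19, edgeR adjusted p = 0.00634) and -0.56 (SE 0.18, adjusted p = 0.0279), and the latter did not pass without control replicate 2 or 3 or HD-homo replicate 2 (0.0544, 0.0865 and 0.0707). Tnfsf12, the ligand TWEAK, was found at 0.344 to 1.09 CPM and rose by 0.92 in HD-het cells (edgeR adjusted p = 0.0224), which was lost without control replicate 1 or 3 or HD-het replicate 3 (0.0804, 0.0568 and 0.0904) and with DESeq2 (0.0566). In HD-homo cells Tnfsf12 passed against control only without HD-homo replicate 2 (adjusted p = 0.0495), and its row overlaps Tnfsf13os and Tnfsfm13. Tnfsf15, the ligand TL1A, whose receptor gene Tnfrsf25 was at 0, had 1 or 2 counts in each control library, 4 or 5 in HD-het and 15 to 22 in HD-homo libraries. It rose in HD-homo cells by 3.44 (SE 0.40, edgeR adjusted p = 3.21e-05), and the HD-het rise of 1.59 (adjusted p = 0.0315) was lost without control replicate 2 or 3 or HD-het replicate 3 (0.0991, 0.0791 and 0.106) and with DESeq2 (0.0922).

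**Figure D3:**
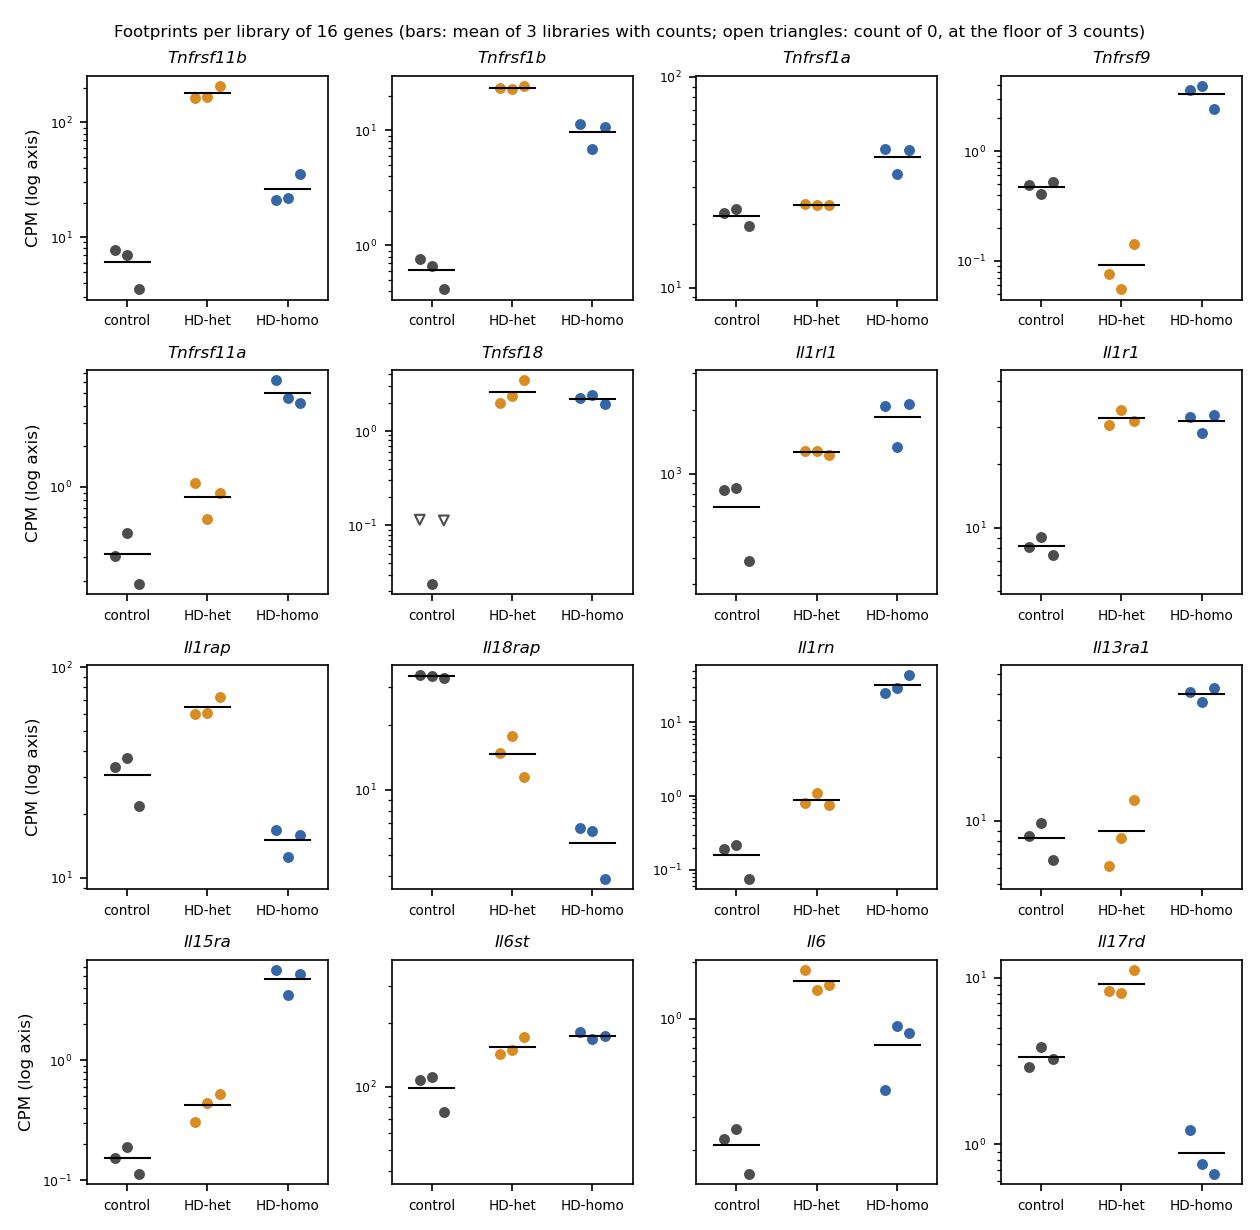
CPM on a log axis in each of the 9 libraries for 16 genes of the set, with bars at the mean of 3 libraries and open triangles for a count of 0 drawn at the floor of 3 counts. The 3 lines separate completely except for Tnfsf18, Il1r1 and Il6st, where HD-het and HD-homo points share a range, and Il13ra1, where control and HD-het points do.

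The IL-1 family held the most abundant gene of the set and some of its clearest changes. Il1rl1 (chr1:40404864-40465418) encodes ST2, whose membrane form receives IL-33 together with the accessory chain Il1rap and whose soluble form binds IL-33 as a decoy. Gene counts do not tell the forms apart. Il1rl1 had 833, 860 and 388 CPM in control, 1289, 1280 and 1231 in HD-het, and 2097, 1341 and 2140 in HD-homo libraries. Every HD library lay above every control library, and each HD-homo library above each HD-het library. The log2 change against control was 0.87 for HD-het (SE 0.26, edgeR adjusted p = 0.0131) and 1.42 for HD-homo cells (SE 0.26, adjusted p = 0.00106), and the difference of 0.55 between the HD lines did not pass (SE 0.26, adjusted p = 0.0775). With GC and length offsets the HD-het change was 0.60 and did not pass (adjusted p = 0.0566). The difference between the HD lines passed without control replicate 3 (0.56, adjusted p = 0.00714) or HD-homo replicate 2 (0.75, 0.0231), with total counts (0.63, 0.0323), without a filter (0.57, 0.0476), in the fit of the HD lines alone (0.52, 0.0142) and with the offsets (0.73, 0.0236).

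Il1rl1 was not the only gene low in control replicate 3 and HD-homo replicate 2. Of the 25 tested genes with a mean of at least 1 CPM in control cells, 17 had their lowest control value in replicate 3, and of 33 such genes in HD-homo cells 20 had theirs in replicate 2. Over all genes at that level, 36.3% and 37.9% did so.

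Il1rap, the accessory chain that IL-1, IL-33 and IL-36 receptors share (chr16:26581509-26730128), moved in opposite directions in the HD lines. It had 33.7, 36.9 and 22 CPM in control, 59.8, 60.8 and 72.3 in HD-het, and 16.9, 12.5 and 16.1 in HD-homo libraries, without overlap between lines. The changes against control were 1.06 (SE 0.18, edgeR adjusted p = 3.85e-04) and -1.03 (SE 0.18, adjusted p = 8.41e-04), and HD-homo cells were lower than HD-het cells by a log2 change of -2.08 (SE 0.19, adjusted p = 2.24e-06). Il1r1, the signalling receptor for IL-1 (chr1:40222480-40316201), was at 8.13, 9.09 and 7.45 CPM in control, 30.7, 36.4 and 32.2 in HD-het, and 33.8, 28.1 and 34.1 in HD-homo libraries. It was about as high in both HD lines, with changes of 2.00 (SE 0.12, edgeR adjusted p = 2.53e-07) and 1.96 (SE 0.12, adjusted p = 1.91e-07), and HD-homo and HD-het cells differed by -0.05 (SE 0.11, adjusted p = 0.717). The IL-1 binding chain and its accessory chain therefore both rose in HD-het cells, whereas in HD-homo cells Il1r1 rose and Il1rap fell.

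Il18rap, the accessory chain of the IL-18 receptor, had the largest fall of the set among genes above 10 CPM in control cells. It had 33.9, 33.7 and 32.7 CPM in control, 14.8, 17.7 and 11.5 in HD-het, and 6.62, 6.46 and 3.86 in HD-homo libraries, and the lines were fully apart. The log2 changes were -1.18 (SE 0.18, edgeR adjusted p = 2.03e-04) in HD-het and -2.55 (SE 0.20, adjusted p = 1.19e-06) in HD-homo cells, and -1.37 (SE 0.20) between them. Its partner Il18r1, the chain that binds IL-18, had only 11, 18 and 1 counts over the libraries of the 3 lines and was not tested. The ligand Il18, which overlaps Bco2 and Tex12, was at 2.37 to 2.79 CPM in control, 3.55 to 5.42 in HD-het and 4.08 to 5.62 in HD-homo libraries, higher by 0.73 (SE 0.20, edgeR adjusted p = 0.00716) and 0.80 (SE 0.20, adjusted p = 0.0063). Without HD-het replicate 2 the adjusted p of the HD-het rise of Il18 was 0.0503.

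Il1rn encodes the IL-1 receptor antagonist, which occupies Il1r1 without signalling (chr2:24336860-24351491), and it showed the largest change of the set among genes above 10 CPM. The control libraries had 5, 9 and 2 counts, or 0.191, 0.214 and 0.0752 CPM, the HD-het libraries 0.797, 1.10 and 0.756 CPM, and the HD-homo libraries 24.5, 29.0 and 43.3 CPM. HD-homo cells exceeded control 187-fold (log2 7.55, SE 0.33, edgeR adjusted p = 1.25e-08), HD-het cells exceeded it by 2.4 (SE 0.47, adjusted p = 0.00102), and the HD lines differed by 5.14 (SE 0.26, adjusted p = 3.26e-08). The agonists of that receptor were almost absent, with Il1b at 0 and Il1a at 9 counts over the 9 libraries. Il33, the ligand of ST2, was found at 0.993 to 1.2 CPM in control, 1.59 to 2.17 in HD-het and 1.30 to 1.84 in HD-homo libraries. It passed in HD-het cells (0.73, SE 0.21, edgeR adjusted p = 0.0113), whereas the HD-homo change of 0.50 had an adjusted p of 0.0787, or 0.0461 without HD-homo replicate 2.

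Il1r1, Il1rl1 and Il18rap belong to a row of 6 IL-1 receptor genes on chromosome 1 that spans 467 kb (chr1:40084692-40551707, GRCm38.p6). Il1r2, a decoy for IL-1, had 5 counts over all libraries and was not tested, like Il18r1. Il1rl2, the IL-36 receptor, lies between Il1r1 and Il1rl1. It had no count in control, 11, 14 and 12 counts in HD-het and 4, 3 and 3 in HD-homo libraries, which made it at least 4.58-fold and at least 1.2-fold higher than the floor of 3 counts per control library, and its HD-homo level was below that of HD-het cells (-1.88, SE 0.40, edgeR adjusted p = 0.00232). Neighbours in this row thus did not move alike, with Il1r1 and Il1rl1 up in both HD lines and Il18rap, at the far end, down in both. Of the IL-36 cytokines, Il1f9 had 31 counts and Il1f6 had 3, in HD-homo libraries only, and Il1f8 had none.

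**Figure D4:**
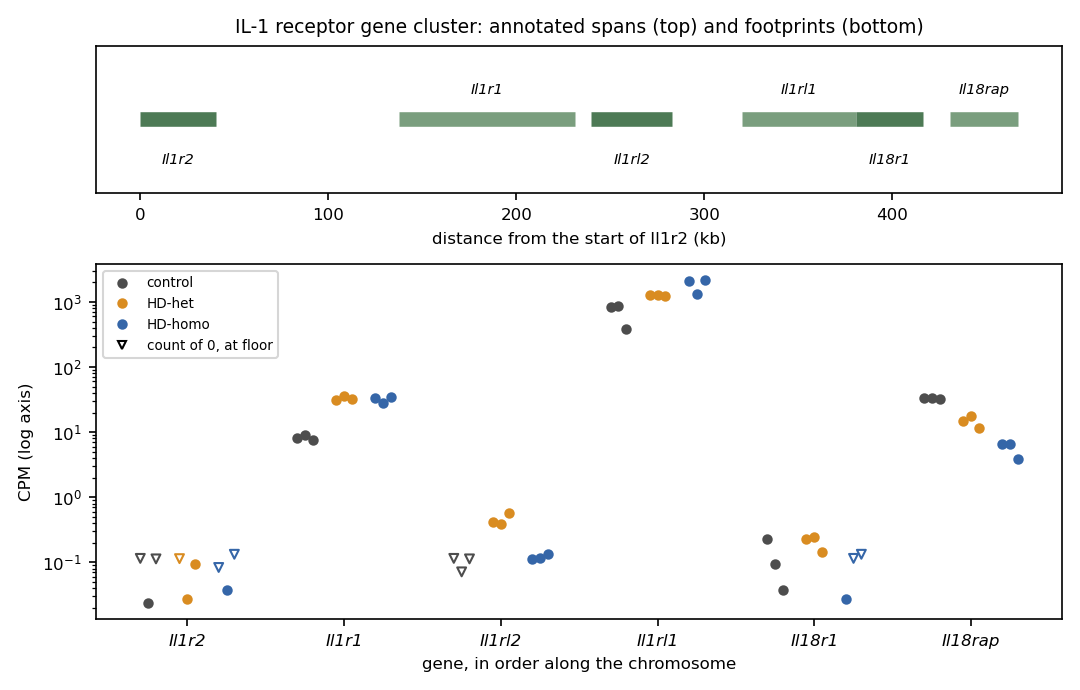
Upper panel, annotated spans of the 6 IL-1 receptor genes by distance in kb from the start of Il1r2; lower panel, CPM on a log axis of each gene in the 9 libraries, with open triangles for counts of 0 drawn at the floor of 3 counts. Il1rl1 lies far above its neighbours in every library, Il1r1 is higher and Il18rap lower in both HD lines than in control, and Il1r2 and Il18r1 stay near the floor.

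In the IL-6 family the receptor chain Il6st was abundant, while no cytokine of the family reached a mean of 10 CPM in a line. Il6st, which encodes gp130, the signalling chain shared by IL-6, IL-11, LIF and related cytokines (chr13:112464070-112506860), had 107, 111 and 76.0 CPM in control, 143, 149 and 171 in HD-het, and 182, 167 and 173 in HD-homo libraries. Both HD lines were above control in every library, by 0.65 (SE 0.13, edgeR adjusted p = 0.00134) and 0.82 (SE 0.13, adjusted p = 3.97e-04). The lines differed by 0.17, which passed only with GC and length offsets (0.49, adjusted p = 0.00412). Il6ra, the chain that binds IL-6, had 10.5, 9.06 and 7.90 CPM in control, 10.1, 9.46 and 12 in HD-het, and 4.53, 4.55 and 4.48 in HD-homo libraries. It was lower in HD-homo than in control (-1.02, SE 0.14, edgeR adjusted p = 1.27e-04) and HD-het cells (-1.21, SE 0.14), and HD-het and control libraries overlapped.

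Il6 itself (chr5:30013114-30019975, overlapping a noncoding gene) was sparse. It had 6, 11 and 4 counts or 0.229, 0.262 and 0.15 CPM in control, 1.82, 1.43 and 1.51 CPM in HD-het, and 0.417, 0.917 and 0.843 in HD-homo libraries, so the lines did not overlap and HD-het was highest. The changes were 2.83 (SE 0.34, edgeR adjusted p = 3.76e-05) and 1.66 (SE 0.38, adjusted p = 0.00437), and -1.17 (SE 0.29) between the HD lines. Il11, a gp130 cytokine, was at 1.45 to 2.06 CPM in control, 2.17 to 3.35 in HD-het and 2.37 to 4.43 in HD-homo libraries. Its HD-homo rise was 1.11 (SE 0.26, edgeR adjusted p = 0.00475), while the HD-het rise of 0.77 (adjusted p = 0.0249) was lost without control replicate 2 or 3 or HD-het replicate 1 or 2 (0.0941, 0.0696, 0.0653 and 0.118). Without HD-homo replicate 2, Il11 also passed as higher in HD-homo cells than in HD-het (0.56, adjusted p = 0.035). Its specific receptor Il11ra1 had 22 counts in all and was not tested. Il11ra2, at 0, has the same coding length of 1296 nt, and how reads that match both would be counted is not given. Il27, the p28 subunit of IL-27, passed in none of the comparisons in the fit of all libraries, with libraries at 1.02 to 3.16, 2.39 to 5.39 and 0.584 to 2.29 CPM. For Il27 the fall in HD-homo against HD-het cells (-1.16, SE 0.52, edgeR adjusted p = 0.0683) passed without control replicate 2 or HD-homo replicate 2 (0.0391 and 0.0435), with DESeq2 (0.0422), with no filter (0.0464), in a fit of those lines alone (0.0436) and with GC and length offsets (0.048).

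In the receptor for IL-4 and IL-13 the chains parted. Il13ra1 (chrX:36112108-36171262) had 8.44, 9.82 and 6.54 CPM in control, 6.11, 8.28 and 12.6 in HD-het, and 40.9, 36.5 and 42.6 in HD-homo libraries. HD-homo libraries stood apart, at 2.27 above control (SE 0.22, edgeR adjusted p = 8.25e-06) and 2.17 above HD-het cells (SE 0.22), and control and HD-het libraries overlapped. Il4ra, the chain it pairs with (chr7:125552271-125579474), was at 44.8, 52.3 and 38.9, then 49.2, 52.6 and 63.4, then 43.7, 22.7 and 44.2 CPM, and only the fall between the HD lines passed (-0.58, SE 0.22, edgeR adjusted p = 0.0352). That call was lost without HD-homo replicate 2, which held the lowest value (-0.32, adjusted p = 0.0615), without HD-het replicate 2 or 3 (0.0623 and 0.116), and with GC and length offsets (0.165). The ligands Il4 and Il13 were at 0.

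Il15ra, which presents IL-15 to neighbouring cells (chr2:11705172-11733985), was another gene highest in HD-homo cells, with 0.153, 0.190 and 0.113 CPM in control, 0.304, 0.440 and 0.520 in HD-het, and 5.65, 3.48 and 5.19 in HD-homo libraries. The rise was 1.39 (SE 0.42, edgeR adjusted p = 0.0139) in HD-het and 4.89 (SE 0.31, adjusted p = 2.54e-07) in HD-homo cells, and the HD lines differed by 3.50 (SE 0.27). Il15 itself had 14 counts, all in HD-homo libraries, and was not tested. The T cell growth factor Il7, whose receptor Il7r was at 0, rose from 0.404 to 0.611 CPM in control and 0.165 to 0.473 in HD-het to 0.779, 1.34 and 2.53 CPM in HD-homo libraries. That was a change of 1.63 against control (SE 0.45, edgeR adjusted p = 0.0125, and 0.0529 without control replicate 2) and 2.11 against HD-het cells (SE 0.49). Il3ra, the IL-3 binding chain (chr14:14345912-14355493), had 1.72, 1.83 and 1.54 CPM in control, 6.07, 6.27 and 7.28 in HD-het, and 1.17, 0.879 and 0.976 in HD-homo libraries. It was higher in HD-het (1.93, SE 0.16, edgeR adjusted p = 2.39e-06) and lower in HD-homo cells (-0.74, SE 0.19, adjusted p = 0.00702) than in control.

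The IL-12 and IL-23 receptor chains were scarce. Il12rb2 and Il23r, the specific chains of either receptor, are neighbours on chromosome 6 (chr6:67285986-67376293 and chr6:67422932-67491855), and both had their highest counts in HD-het libraries. Il12rb2 had 0, 2 and 0 counts in control, 14, 52 and 14 in HD-het, and 0, 1 and 0 in HD-homo libraries, a ratio of HD-het to control of 45.2 (95% counting interval 12.12 to 379.9) and to HD-homo of 80.8 (14.09 to 3229). Il23r had 7, 5 and 7, then 18, 34 and 18, then 0, 1 and 0 counts. It rose by 2.00 in HD-het cells (SE 0.38, edgeR adjusted p = 8.56e-04), and the ratio of control to HD-homo was 17 (2.697 to 704.9) and of HD-het to HD-homo 70.7 (12.28 to 2831). Their common partner Il12rb1 went the other way, with 13, 15 and 10 counts in control, 1, 0 and 3 in HD-het, and 18, 11 and 31 in HD-homo libraries. Its fall in HD-het cells was fitted at -2.96 (SE 0.85, edgeR adjusted p = 0.0106), at -2.21 (0.0511) without HD-het replicate 2 and at -4.36 without HD-het replicate 3. Against HD-het, HD-homo cells were 3.81 higher (SE 0.78), or 3.05, 5.19 and 3.17 without HD-het replicate 2, HD-het replicate 3 and HD-homo replicate 3. For Il12rb2 the fitted HD-het change was 5.19, and 7.66 or 4.54 without control replicate 2 or HD-het replicate 2. Between the HD lines it was -5.83, and -5.20 without HD-het replicate 2 or HD-homo replicate 1 and -7.77 without HD-homo replicate 2. For Il23r the fitted HD-homo change against control was -3.69, and -3.06 or -5.62 without HD-homo replicate 1 or 2, and against HD-het cells -5.69, and -5.06 or -7.62. The cytokine subunits Il12a and Il12b were at 0, Il23a had 20 counts, and Il12rb2 overlaps Serbp1 in the annotation.

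In the IL-17 family, the common chain Il17ra had 28.6, 31.0 and 19.7 CPM in control, 44.4, 46.6 and 57.5 in HD-het, and 31.0, 18.2 and 25 in HD-homo libraries. It was higher in HD-het than in control (0.90, SE 0.20, edgeR adjusted p = 0.00253) and HD-homo cells, and control and HD-homo libraries overlapped. Il17rc, its partner in the IL-17A receptor, was lower in HD-homo cells, at 18.3 to 21.5 CPM in control, 17.1 to 19.5 in HD-het and 12 to 13.2 in HD-homo libraries (-0.65, SE 0.10, edgeR adjusted p = 2.94e-04). For Il17rc the HD-het change of -0.12 became -0.29 and passed with GC and length offsets (adjusted p = 0.0184). Il17rd, also known as Sef, an inhibitor of FGF signalling (chr14:27038964-27107286), had 2.90, 3.83 and 3.23 CPM in control, 8.27, 8.08 and 11.1 in HD-het, and 1.22, 0.765 and 0.665 in HD-homo libraries. Il17rd thus rose in HD-het (1.44, SE 0.20, edgeR adjusted p = 8.79e-05) and fell in HD-homo cells (-1.87, SE 0.24, adjusted p = 8.02e-05), and the lines differed by -3.31 (SE 0.23). The only ligand tested, Il17d, was highest in HD-het cells, at 0.639 to 0.840, 1.15 to 1.37 and 0.535 to 0.918 CPM. Its HD-het rise of 0.84 (edgeR adjusted p = 0.0112) was lost without control replicate 2 (0.0538), and its fall of -0.75 in HD-homo against HD-het cells (0.0178) without HD-het replicate 1 (0.0574) or HD-homo replicate 2 (0.0623).

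The remaining genes were Il10rb, Il20rb and Il34. Il10rb, a chain shared by the IL-10, IL-22 and type III interferon receptors, was at 9.85 to 12 CPM in control, 12.7 to 17.2 in HD-het and 12.2 to 13.2 in HD-homo libraries. Its HD-het rise of 0.39 (SE 0.13, edgeR adjusted p = 0.0224) was lost without control replicate 3 (0.093) or HD-het replicate 3 (0.114) and with GC and length offsets (0.0838). Il20rb passed in no comparison. Il34, a ligand of the receptor Csf1r, had 11, 14 and 10 counts in control, 0, 1 and 1 in HD-het, and 27, 20 and 21 in HD-homo libraries. The ratio of control to HD-het was 15.5 (95% counting interval 3.977 to 132.8), and HD-homo cells were above control by 1.11 (SE 0.29, edgeR adjusted p = 0.00802, and 0.051 with DESeq2). Its receptor Csf1r averaged 0.339 CPM in control cells, and 0.380 and 1.06 CPM in the HD-het and HD-homo lines.

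Tnfrsf11b, Il1rap, Il17ra, Il17rd and Il3ra were among the genes highest in HD-het cells. In that line 5 of 7 mesenchymal markers and 4 of 7 microglia and macrophage markers with counts were also highest. Of these 4 microglia and macrophage markers, only Cd68 exceeded 1 CPM. Aif1 and Itgam had 2 and 1 counts over all libraries, and Ptprc averaged 0.193 CPM in HD-het, 0.144 in control and 0.106 in HD-homo cells. Il1rn, Il13ra1, Il15ra, Tnfrsf9, Tnfrsf11a and Tnfrsf19 were among those highest in HD-homo cells, where 5 of 7 precursor markers were lowest. Of the other lists, 3 of 5 endothelial, 4 of 9 striatal projection neuron, 3 of 7 precursor and 1 of 5 astrocyte markers were highest in HD-het cells. Among markers with counts, 2 of 7 mesenchymal, 2 of 5 astrocyte and 1 of 7 microglia and macrophage markers were highest in HD-homo cells. So were 4 of 9 striatal projection neuron and 1 of 5 endothelial markers in HD-homo cells, but 0 of 7 precursor markers. In the T cell list 0 of 2 were highest in either HD line. Another 3 mesenchymal and 2 astrocyte markers were lowest in HD-homo cells. The part of these markers in the results was not tested.

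Promoters are shown for 4 examples, chosen after their values were seen, of genes that rose at least 2-fold in both HD lines and exceeded 1 CPM. RefSeq start sites (GRCm38.p6) gave 110 windows for 91 of the 116 genes, and Tnfrsf11b was not among them. The 250 bases before the start of Tnfrsf1b (chr4:145246871-145247120, minus strand), Il6 (chr5:30012864-30013113, plus strand), Tnfsf18 (chr1:161494407-161494656, plus strand) and the distal and a proximal start of Il1rn (chr2:24336610-24336859 and chr2:24345121-24345370, plus strand) are given 5′ to 3′. Capitals mark matches to the NF-kB motif, GGG and CC with 5 bases of any kind between them, on either strand, and matches may overlap.
Tnfrsf1b: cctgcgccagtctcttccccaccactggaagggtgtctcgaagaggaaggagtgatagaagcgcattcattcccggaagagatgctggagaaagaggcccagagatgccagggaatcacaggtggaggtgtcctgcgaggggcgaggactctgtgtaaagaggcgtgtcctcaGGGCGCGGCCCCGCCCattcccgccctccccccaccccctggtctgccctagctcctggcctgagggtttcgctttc
Il6: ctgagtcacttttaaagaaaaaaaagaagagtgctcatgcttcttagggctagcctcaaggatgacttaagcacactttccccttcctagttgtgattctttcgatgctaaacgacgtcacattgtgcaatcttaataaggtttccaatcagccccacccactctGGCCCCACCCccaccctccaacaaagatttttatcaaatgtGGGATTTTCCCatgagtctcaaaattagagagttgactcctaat
Tnfsf18: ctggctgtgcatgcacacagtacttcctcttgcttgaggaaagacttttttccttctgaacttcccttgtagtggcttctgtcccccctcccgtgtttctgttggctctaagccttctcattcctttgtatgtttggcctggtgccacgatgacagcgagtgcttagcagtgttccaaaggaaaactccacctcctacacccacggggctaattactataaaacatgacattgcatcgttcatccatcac
Il1rn, distal start: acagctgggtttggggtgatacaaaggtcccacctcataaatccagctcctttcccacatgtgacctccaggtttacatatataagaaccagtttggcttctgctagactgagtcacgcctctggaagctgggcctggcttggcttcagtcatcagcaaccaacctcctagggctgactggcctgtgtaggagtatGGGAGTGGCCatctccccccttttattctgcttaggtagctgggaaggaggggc
Il1rn, proximal start: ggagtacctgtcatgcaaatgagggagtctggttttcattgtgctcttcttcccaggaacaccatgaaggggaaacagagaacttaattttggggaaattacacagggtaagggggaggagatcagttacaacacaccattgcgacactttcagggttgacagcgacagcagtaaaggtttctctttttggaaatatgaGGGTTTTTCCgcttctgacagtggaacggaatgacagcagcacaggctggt
Tnfrsf1b has 3 overlapping matches in these bases, Il6 has 3, of which a pair overlap, each of these starts of Il1rn has 1, and Tnfsf18 has none. In windows from 250 bases before to 50 after the start, the motif was found in 52.7% of the 110 windows of the set and in 50.8% of 32851 windows of all genes. The interferon response motif, TTTC repeated after 2 bases of any kind, was found in 6.36% and 3.44%, and the STAT motif TTCNNNGAA in 15.5% and 8.3%. These shares were not tested, and a match shows only that the letters are there.

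Partner genes outside the symbol rule were read from 5 lists. Of 15 TNF superfamily genes with names of their own, 6 were tested, and 3 were higher and 1 lower in HD-het and 3 higher and 2 lower in HD-homo cells than in control. For reading these counts and those that follow, 31% of all genes tested were higher and 29.1% lower in HD-het cells, and 23.3% and 22.3% in HD-homo cells. Ltbr, the lymphotoxin beta receptor, changed most, from 0.0745 ± 0.0386 CPM in control to 7.62 ± 0.518 and 30.4 ± 5.21 in HD-het and HD-homo cells (SD, n = 3), with log2 changes of 6.60 (SE 0.28) and 8.61 (SE 0.25, edgeR adjusted p = 8.17e-10). Fas, a death receptor, was at 3.90 ± 0.688, 13.9 ± 0.604 and 7.94 ± 1.72 CPM (SD, n = 3), higher in both HD lines and highest in HD-het cells. Cd40 was lower than control in HD-het (log2 change -2.75, SE 0.46) and HD-homo cells (-1.26, SE 0.37), and Relt in HD-homo cells (-1.07, SE 0.16).

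Of 35 genes that act downstream of TNF receptors, 9 were higher and 14 lower in HD-het cells (25.7% and 40%), and 11 higher and 3 lower in HD-homo cells (31.4% and 8.57%). Between the HD lines 19 were higher and 3 lower in HD-homo cells (54.3% and 8.57%, beside 34.6% and 32.8% of all genes tested). The necroptosis kinase Ripk3 was at 0.234 ± 0.0733, 1.00 ± 0.303 and 62.7 ± 1.64 CPM (SD, n = 3), a rise of 7.99 in HD-homo cells (SE 0.20, edgeR adjusted p = 3.06e-10). Its substrate Mlkl, which permeabilizes the membrane, was at 1.04 ± 0.498, 12.3 ± 2.07 and 54.8 ± 7.16 CPM (SD, n = 3), and both genes were higher in both HD lines. The adaptor Traf1 fell from 2.51 ± 0.481 to 0.330 ± 0.0959 CPM in HD-het and rose to 20.6 ± 1.28 CPM in HD-homo cells (SD, n = 3). Map3k14 was also lower in HD-het cells than in control (log2 change -1.43, SE 0.19). The list as a whole had a median log2 change of -0.17 for HD-het and 0.21 for HD-homo against control, beside 0.02 over all genes.

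The 17 tested genes of IL-1 and Toll signalling counted 6 higher and 4 lower in HD-het (35.3% and 23.5%) and 6 higher and 2 lower in HD-homo cells (35.3% and 11.8%), and the HD-het shares lay near those of all genes tested. The adaptor Myd88 was at 15.2 ± 0.726, 14.6 ± 1.14 and 30.3 ± 0.708 CPM (SD, n = 3). In the JAK-STAT list of 26 tested genes, 4 were higher and 7 lower in HD-het (15.4% and 26.9%), and 11 higher and 1 lower in HD-homo cells (42.3% and 3.85%). Stat6, the factor that the IL-4 and IL-13 receptor activates, was at 0.161 ± 0.0948 CPM in control, then 0.162 ± 0.0268 and 38.8 ± 3.17 in HD-het and HD-homo cells (SD, n = 3), a rise of 7.90 (SE 0.21, edgeR adjusted p = 4.34e-10), and both Stat6 and Il13ra1 were called higher in HD-homo cells than in either other line. Of 14 tested cytokines and receptors of the gp130 and haematopoietic list, 6 were higher and 1 lower in HD-het (42.9% and 7.14%), and 11 higher and 2 lower in HD-homo cells (78.6% and 14.3%). Lif, a gp130 cytokine, rose from 3.86 ± 0.28 CPM to 32.6 ± 5.29 and 55.6 ± 17.3 in HD-het and HD-homo cells, and Osmr, the oncostatin M receptor that pairs with gp130, was at 21.3 ± 9.24, 23.7 ± 8.6 and 86.9 ± 26.6 CPM (SD, n = 3). Those lower than control were Cntf (log2 change -2.34, SE 0.33) and Ctf1 (-2.13, SE 0.31) in HD-homo cells, and Ctf1 (-1.19, SE 0.28) in HD-het cells.

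**Figure D5:**
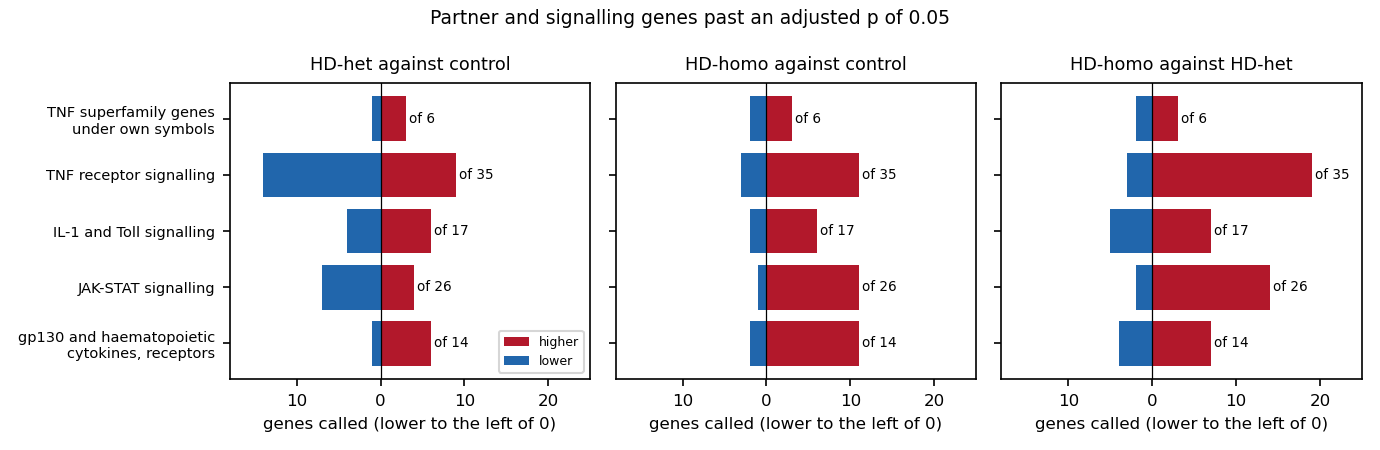
Number of genes called higher (red, right of 0) and lower (blue, left of 0) at an adjusted p under 0.05 in 5 lists of partner and signalling genes (rows) for the 3 comparisons (panels), with the number tested beside each bar. TNF receptor signalling genes had 14 lower and 9 higher in HD-het against control and 3 lower and 11 higher in HD-homo against control.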

How the data were processed

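Ribosome footprints were measured in 9 libraries, 3 each of control, HD-het and HD-homo cells. The authors deposited raw counts of footprints per gene symbol, 1 column per library, without normalization or pooling. Cutadapt, Bowtie 1.0.1 and mm10 are named in the submitters' processing notes, and the counting program, annotation and use of strand are not given in the sources used here. Matched mRNA was not used, so values are footprint abundances. Columns were matched to samples by name, and 12678 rows passed filterByExpr. They were fitted in 1 model of all libraries with edgeR 4.0.16 (limma 3.58.1, R 4.3.3), with TMM factors, group means, the quasi-likelihood F test and Benjamini-Hochberg adjustment over all rows tested (threshold 0.05); SE is the log2 change divided by the root of F. The script was tested on simulated data. CPM used TMM-scaled totals, which were 22504543 to 41888701 counts before scaling. For totals of 1 to 3 counts in a group, ratios of summed counts carry exact 95% intervals, and for groups at 0 the floor was 3 counts per library. Coordinates and promoters came from RefSeq (GRCm38.p6), to which all 116 symbols matched. Coding lengths, found for 113, were the longest coding sequence of each gene in GENCODE, which also gave GC content. The deposited table's annotation may differ from both sources. Genes of the set could be named where tested, with library values for those of at least 1 CPM in a line that passed in a comparison, taking at most the 10 largest rises and falls of each, and of each signalling list the 3 largest rises and falls. The gene set, the signalling and marker lists and the tests were chosen with earlier results of these data known. Alternatives were RLE factors, total counts, DESeq2 1.42.0, omitting the filter, a minimum of 10 counts in all libraries, fits of only the 6 libraries of a comparison, a replicate block, an adjusted p under 0.01, a 2-fold change and leaving out each library. After seeing the data, offsets that remove a loess trend (span 0.5) against GC and coding length were added.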

Additional observations from a re-analysis of the deposited data

Results flagged for a closer look

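Of the 45 tested genes, 7 were called in opposite directions in the HD lines against the shared control libraries, 15.6% beside 11.9% of all genes tested, and for each the difference between HD-homo and HD-het cells was itself tested with edgeR. Higher than control in HD-het and lower in HD-homo cells were Il1rap, with a log2 change of -2.08 between the HD lines (adjusted p = 2.24e-06), Il17rd with -3.31 (3.6e-07), Il3ra with -2.67 (1.74e-07) and Il23r with -5.69 (1.4e-05). Lower in HD-het and higher in HD-homo cells were Tnfrsf9 with 5.25 (2.61e-07), Tnfrsf19 with 3.99 (2.32e-07) and Il34 with 4.85 (5.43e-06). For Tnfrsf19 the HD-het call was lost without control replicate 2 or HD-het replicate 2, and for Il34 the HD-homo call was lost with DESeq2. Il23r in HD-homo and Il34 in HD-het libraries rested on 1 and 2 counts.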

How the results depend on the processing

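Of 94 calls, 75 were kept under every alternative that tested them and none reversed. RLE factors, total counts, no filter and the replicate block lost none, DESeq2 lost 3, the GC and length offsets 4 and single libraries 1 to 8. The fit of 6 libraries tested 87 of them and lost none. Requiring 10 counts in every library, which removes genes at or near 0 in a line, changed the higher and lower calls from 25 and 7 to 15 and 3 in HD-het against control, and the higher calls from 23 to 10 in HD-homo against control and from 13 to 2 between the HD lines. An adjusted p under 0.01 left 15 and 4 in HD-het against control, and a 2-fold change 15 and 4. A 2-fold change also left 5 of 8 lower in HD-homo against control and 11 of 18 lower between the HD lines. Of the signalling genes called, a 2-fold change left 15 of 28 higher and 5 of 27 lower in HD-het, 23 of 42 and 4 of 10 in HD-homo, and 26 of 50 and 9 of 16 between the HD lines, and an adjusted p under 0.01 left 4 lower in HD-homo. Without single libraries, higher and lower calls in the set were 21 to 26 and 4 to 7, 22 to 25 and 7 to 9, and 13 to 16 and 15 to 18 in the 3 comparisons, and those of signalling genes 24 to 29 and 21 to 30, 35 to 42 and 6 to 11, and 48 to 51 and 15 to 17.

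The replicate numbers were not taken to pair the libraries, since the sources used here do not say that a number marks a round of culture. Deviations from the line mean correlated from -0.356 to 0.175 for same-numbered libraries of different lines and from -0.275 to 0.376 for the others. With only 3 libraries to a line these correlations cannot decide whether the numbers pair libraries. With the replicate block, calls were 25 and 7, 23 and 9, and 13 and 18, and the call gained was Tnfrsf22, lower in HD-homo than in control cells (adjusted p = 0.0191, edgeR).

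Changes of sign concerned differences that had not passed. With total counts, Tnfrsf22 was at -0.0068 in HD-het against control and Il1r1 at 0.0261 between the HD lines. With offsets, Il13ra1 was at -0.14 in HD-het against control, and Il18 at -0.12 and Il1r1 at 0.13 between the HD lines. Leaving out single libraries moved the HD-het change of Il13ra1 from -0.22 to 0.30, of Il20rb from -0.61 to 0.19, of Tnfrsf22 from -0.22 to 0.26 and of Tnfsf11 from 0 to 2.52. It moved the HD-homo change of Il12rb2 from -2.58 to 1.86, of Il17d from -0.13 to 0.27, of Il17ra from -0.30 to 0.0851, of Il20rb from -0.13 to 0.67 and of Tnfrsf23 from -0.34 to 0.11. Between the HD lines the ranges were -0.10 to 0.26 for Il18, -0.10 to 0.0401 for Il1r1, -0.39 to 4e-04 for Tnfsf12 and -0.37 to 0.0193 for Tnfsf18. The cause was not tested. Where the libraries of both lines compared held counts under 3, differences among the scarcest genes could go undetected at this depth.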
